A study of Mus musculus with 30 samples.

Results

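The genes described here are 10 genes listed as markers of fibroblasts and fibro-adipogenic progenitors (FAPs), in sorted mouse muscle satellite cells: Pdgfra, Dpt, Lum, Dcn, Smoc2, Ly6a, Thy1, Fap, Tcf4 and Gsn. The names marker and fibroblast gene refer to this list and do not say which cells expressed a gene. They were found by gene symbol in the annotation of the array, and each was read from the probe set that carries that symbol alone. Of the 10 genes, 9 had such a probe set, 1 each, among 19938 genes measured. No single-gene probe set carried the symbol Ly6a in the annotation used, so Ly6a, which encodes the sort antigen Sca1, was not analysed here.

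The study compared satellite cells at rest with satellite cells activated in vivo, and cells of old with cells of young mice. RNA of cells sorted from enzyme-digested hindlimb muscle was hybridised to 30 arrays, 3 for each of 10 groups. The cells came from uninjured muscle (quiescent satellite cells, QSCs) or from muscle injured with barium chloride 36, 60 or 84 h earlier, and these activated satellite cells are called ASCs. Old C57BL6 wildtype mice of 22 to 24 months gave QSCs and 60 h ASCs. Young C57BL6 wildtype mice of 2 to 3 months gave QSCs and 36, 60 and 84 h ASCs. At both ages the gate took VCAM+ cells and removed those carrying CD31, CD45 or Sca1, and the sorted cells are called VCAM cells below. The remaining 4 groups were YFP-positive cells of young Pax7CreER/+;ROSA26eYFP/+ mice at the same 4 stages, called YFP cells. In these mice a tamoxifen-inducible Cre made from the Pax7 locus switches on YFP, so only cells that expressed Pax7 when tamoxifen was given, and their progeny, are marked. Whether the 3 arrays in each group stand for separate animals is not in the labels, and the p values therefore measure only the spread between these samples.

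FAPs are mesenchymal cells of the muscle interstitium that express the receptor PDGFRα and the surface protein Sca1. After injury they multiply and secrete matrix and signals that act on satellite cells, and they can turn into fibroblasts or adipocytes. Many of the genes used to mark them encode secreted matrix proteins, and some of these are also made by other mesenchymal cells and by satellite cells. In a bulk sample, fewer cells of a type and less RNA per cell cannot be told apart.

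The promoter windows of Pdgfra and Dpt are given because the levels of these genes changed in opposite directions at 36 h after injury. They are taken from RefSeq on mouse build GRCm38.p6, on the plus strand, as 300 bases around a start site (chr5:75152001-75152300 for Pdgfra and chr1:164796413-164796712 for Dpt). For Dpt this is the first base of the gene in RefSeq, and for Pdgfra it lies downstream of that base, so another start site may be in use. Capitals mark matches on either strand to the motifs searched, which were the TATA box TATAAA, the CCAAT box, the GC box GGGCGG, the E-box CANNTG, the AP-1 site TGANTCA and the ETS site GGAAGT.
Pdgfra: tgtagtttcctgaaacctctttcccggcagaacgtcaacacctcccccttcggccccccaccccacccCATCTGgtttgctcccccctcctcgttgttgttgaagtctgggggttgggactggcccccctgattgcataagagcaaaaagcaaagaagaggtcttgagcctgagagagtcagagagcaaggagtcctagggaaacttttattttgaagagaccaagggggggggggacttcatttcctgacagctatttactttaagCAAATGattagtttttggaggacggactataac
Dpt: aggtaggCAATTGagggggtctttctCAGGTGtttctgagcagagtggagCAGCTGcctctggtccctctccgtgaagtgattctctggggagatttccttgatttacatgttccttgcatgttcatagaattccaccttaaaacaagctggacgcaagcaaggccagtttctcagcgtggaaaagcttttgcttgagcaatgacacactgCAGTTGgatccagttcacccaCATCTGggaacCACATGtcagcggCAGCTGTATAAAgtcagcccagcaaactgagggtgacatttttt
The Pdgfra window held 2 matches to CANNTG, which basic helix-loop-helix factors bind, and none to the other motifs. The Dpt window held 7 matches to CANNTG and 1 to TATAAA, and the last E-box runs straight into TATAAA. With the start site counted as base 1, this E-box begins at base 7 and TATAAA at base 13, both downstream of the start site. Of 32851 windows of this length in the table, 72.3% held CANNTG, 13.6% TATAAA, 37.4% CCAAT, 35.7% GGGCGG, 7.81% TGANTCA and 23.8% GGAAGT. A match describes the letters only.

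Values are log2 intensities after the robust multi-array average (RMA), so a difference of 1 is a 2-fold change, and the values of different probe sets were not compared with each other. Array medians lay between 7.03 and 7.16, and arrays of a group correlated at 0.996 to 0.9983 over genes. A gene was called where the Benjamini-Hochberg adjusted p of limma, over all 19938 genes, was under 0.05 and the fold change was at least 1.5. The mean level of 14 satellite cell markers was 11.90 to 11.95 in the young VCAM QSC arrays and 11.66 to 11.74 in the YFP QSC arrays, and lay between 9.59 and 10.86 in arrays of young ASCs. Ptprc, which encodes CD45, measured 6.05 to 6.37 in young VCAM QSCs, 8.96 to 9.09 at 36 h, 7.42 to 7.56 at 60 h and 8.44 to 8.53 at 84 h, although CD45-positive cells had been gated out. Its YFP values were 6.20 to 6.27 in QSCs, 9.15 to 9.24 at 36 h, 8.24 to 8.43 at 60 h and 9.39 to 9.54 at 84 h. Old VCAM cells read 6.21 to 6.43 in QSCs and 9.09 to 9.19 at 60 h.

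**Figure D1:**
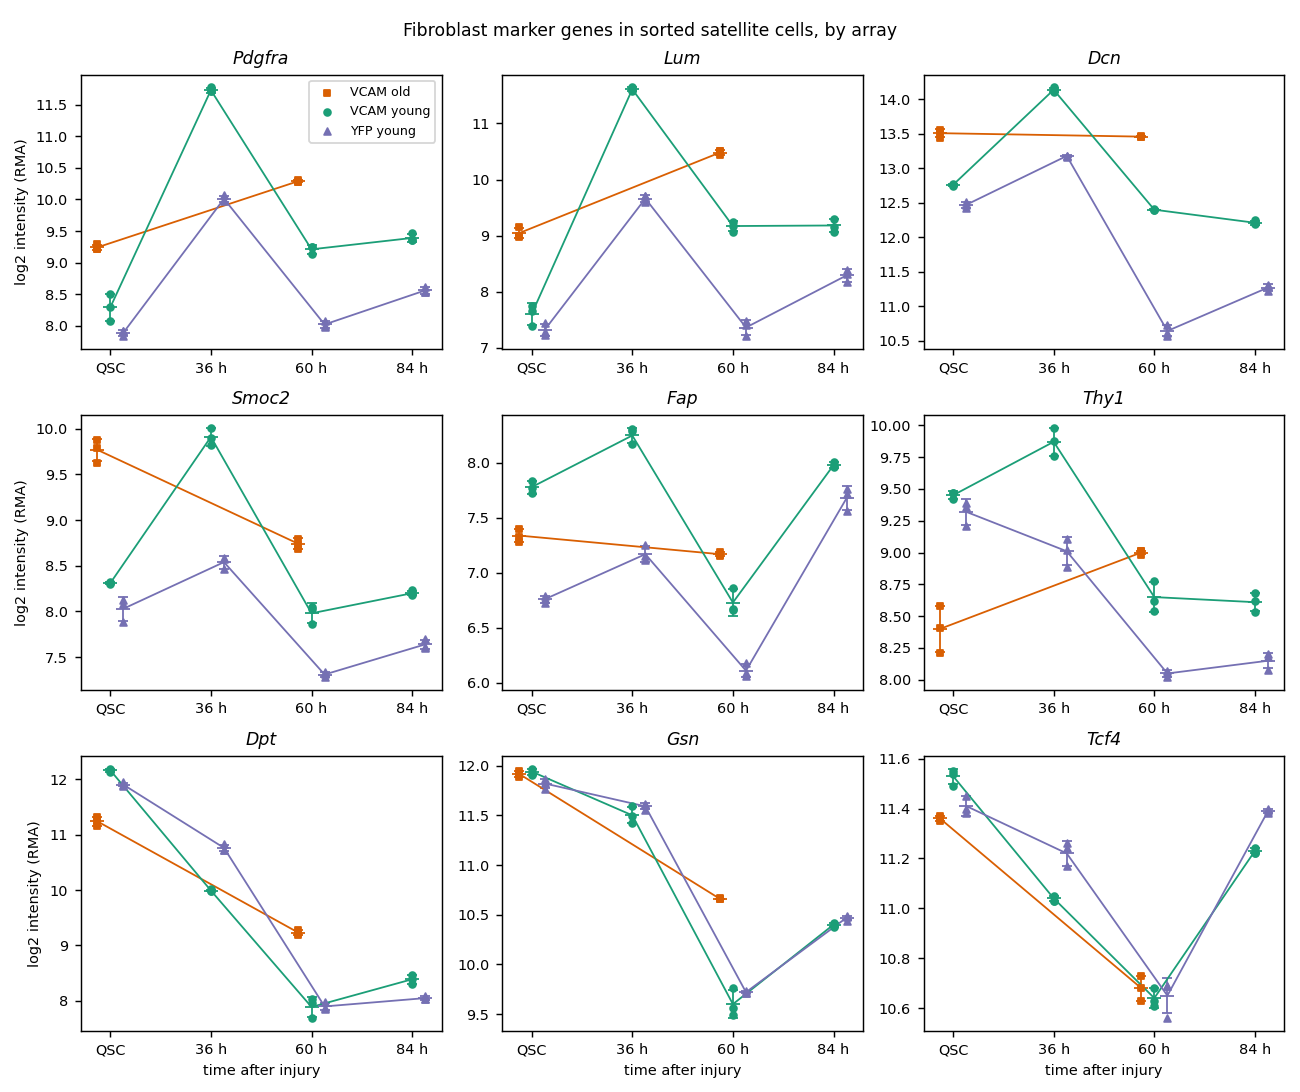
Log2 intensity (RMA) of the 9 measured genes in every array, with the stage on the horizontal axis (QSC, then hours after injury) and the group means and SD (n = 3) as dashes and bars joined by lines, for old VCAM, young VCAM and young YFP cells. Pdgfra, Lum, Dcn and Smoc2 peaked at 36 h in both young sorts, while Dpt and Gsn were highest in QSCs, as was Tcf4 in VCAM cells (in YFP cells its QSC and 84 h arrays overlapped).

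Pdgfra encodes the receptor for PDGF-A and PDGF-C that defines FAPs. In young VCAM cells it measured 8.07, 8.30 and 8.50 in QSCs, 11.71, 11.71 and 11.78 at 36 h, 9.14, 9.25 and 9.25 at 60 h, and 9.35, 9.35 and 9.47 at 84 h. In YFP cells it measured 7.83, 7.91 and 7.92 in QSCs, 10.07, 9.99 and 9.97 at 36 h, 7.98, 7.99 and 8.08 at 60 h, and 8.53, 8.54 and 8.62 at 84 h. In both sorts every 36 h array was above every array of the other 3 stages. Of all genes, 59.4% in VCAM cells and 57.1% in YFP cells had 36 h and QSC arrays that did not overlap. At 36 h against QSCs Pdgfra rose by 3.44 in VCAM cells (SE 0.069, 10.9-fold, adjusted p = 6.94e-24) and by 2.12 in YFP cells (SE 0.069, 4.35-fold, adjusted p = 2.84e-19). At 60 h it was still above QSCs in VCAM cells by 0.93 (adjusted p = 3.65e-12), and the difference was 0.13 in YFP cells (95% interval -0.01 to 0.27, adjusted p = 0.108). In old VCAM cells it measured 10.27, 10.28 and 10.31 at 60 h and 9.29, 9.22 and 9.22 in QSCs. The highest group was young VCAM cells at 36 h with 11.73 ± 0.04, and the lowest YFP QSCs with 7.89 ± 0.05 (SD, n = 3 each). Of neighbouring groups in that order only old VCAM QSCs with young VCAM cells at 60 h, and young VCAM QSCs with YFP cells at 60 h, overlapped.

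Lum and Dcn encode lumican and decorin, small leucine-rich proteoglycans that bind collagen fibrils, and they are neighbours on chromosome 10 with 0 protein-coding genes between them. Lum in young VCAM cells measured 7.39, 7.74 and 7.66 in QSCs, 11.65, 11.58 and 11.59 at 36 h, 9.07, 9.17 and 9.25 at 60 h, and 9.16, 9.30 and 9.07 at 84 h. The YFP arrays read 7.28, 7.23 and 7.44 in QSCs, 9.70, 9.59 and 9.71 at 36 h, 7.47, 7.20 and 7.40 at 60 h, and 8.39, 8.31 and 8.17 at 84 h. The QSC and 60 h arrays of YFP cells overlapped, while those of VCAM cells did not. Lum had the widest rise of the measured markers at 36 h, with 4.01 in VCAM cells (SE 0.085, 16.1-fold, adjusted p = 2.01e-23) and 2.35 in YFP cells (SE 0.085, 5.09-fold, adjusted p = 2.86e-18). At 60 h it remained 1.57 above QSCs in VCAM cells (adjusted p = 4.29e-15), and the difference was 0.04 in YFP cells (95% interval -0.14 to 0.21, adjusted p = 0.714). The values of young QSCs and of YFP cells at 60 h, 7.20 to 7.74, lay not far above the array medians of 7.03 to 7.16. Whether the Lum probe set was above background there was not tested.

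Dcn was bright throughout. The young VCAM arrays read 12.77, 12.74 and 12.76 in QSCs, 14.18, 14.11 and 14.13 at 36 h, 12.39, 12.39 and 12.41 at 60 h, and 12.19, 12.20 and 12.25 at 84 h. Among YFP cells the values were 12.43, 12.47 and 12.51 in QSCs, 13.18, 13.17 and 13.18 at 36 h, 10.61, 10.57 and 10.73 at 60 h, and 11.22, 11.31 and 11.29 at 84 h. No 2 stages of a sort overlapped. At 36 h Dcn rose by 1.39 in VCAM cells (SE 0.044, adjusted p = 6.6e-20) and by 0.71 in YFP cells (SE 0.044, adjusted p = 1.95e-13). At 60 h it was below QSCs in YFP cells by a log2 change of -1.84 (adjusted p = 9.7e-23), whereas the change of -0.36 in VCAM cells was under 1.5-fold and was not called.

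Smoc2 encodes a secreted calcium-binding protein of the SPARC family. Among young VCAM cells the values were 8.30, 8.31 and 8.32 in QSCs, 9.82, 9.90 and 10.01 at 36 h, 8.03, 8.05 and 7.86 at 60 h, and 8.19, 8.23 and 8.18 at 84 h. Its values in YFP cells were 7.89, 8.13 and 8.08 in QSCs, 8.57, 8.46 and 8.58 at 36 h, 7.28, 7.32 and 7.34 at 60 h, and 7.60, 7.61 and 7.70 at 84 h. At 36 h it rose by 1.60 in VCAM cells (SE 0.066, adjusted p = 2.51e-17), and the change in YFP cells was 0.50 (SE 0.066, adjusted p = 3.53e-07), under the fold threshold. In old VCAM QSCs it measured 9.79, 9.63 and 9.88. These values were not tested against young VCAM cells at 36 h, a pair of groups that differs in both age and stage.

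Dpt encodes dermatopontin, a small matrix protein that binds decorin and collagen. Its values in young VCAM cells were 12.13, 12.16 and 12.19 in QSCs, 10.01, 9.99 and 9.98 at 36 h, 7.69, 8.03 and 7.96 at 60 h, and 8.47, 8.31 and 8.39 at 84 h. YFP cells gave 11.89, 11.88 and 11.94 in QSCs, 10.73, 10.72 and 10.83 at 36 h, 7.86, 7.87 and 7.98 at 60 h, and 8.03, 8.08 and 8.04 at 84 h. At 36 h Dpt ran opposite to Pdgfra, Lum and Dcn in both sorts, with log2 changes against QSCs of -2.17 in VCAM cells (SE 0.064, adjusted p = 1.52e-20) and -1.15 in YFP cells (SE 0.064, adjusted p = 2.25e-14). At 60 h the changes were -4.27 in VCAM cells (19.3-fold lower, adjusted p = 1.02e-26) and -4.00 in YFP cells (16.0-fold lower, adjusted p = 3.84e-26). In old VCAM cells it measured 9.27, 9.23 and 9.19 at 60 h and 11.32, 11.16 and 11.25 in QSCs, a change of -2.01 (SE 0.064, adjusted p = 4.74e-20).

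Gsn encodes gelsolin, which severs and caps actin filaments and also has a secreted form. Young VCAM cells gave 11.91, 11.92 and 11.97 in QSCs, 11.42, 11.49 and 11.59 at 36 h, 9.49, 9.56 and 9.76 at 60 h, and 10.38, 10.39 and 10.42 at 84 h. In YFP cells it measured 11.76, 11.83 and 11.87 in QSCs, 11.55, 11.61 and 11.60 at 36 h, 9.71, 9.71 and 9.73 at 60 h, and 10.48, 10.44 and 10.49 at 84 h. The main fall of Gsn lay between 36 and 60 h, with log2 changes of -1.90 in VCAM cells (SE 0.053, adjusted p = 1.36e-20) and -1.87 in YFP cells (SE 0.053, adjusted p = 1.84e-20). From 60 to 84 h it rose again by 0.79 in VCAM cells (adjusted p = 6.46e-12) and by 0.76 in YFP cells (adjusted p = 8.66e-12), and it stayed below QSCs.

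Thy1 and Fap encode surface proteins. Thy1, a glycolipid-anchored protein of the immunoglobulin family, is also a marker of T lymphocytes. Thy1 in young VCAM cells measured 9.42, 9.47 and 9.47 in QSCs, 9.76, 9.88 and 9.98 at 36 h, 8.62, 8.54 and 8.78 at 60 h, and 8.62, 8.53 and 8.68 at 84 h. The YFP arrays read 9.21, 9.36 and 9.39 in QSCs, 8.89, 9.02 and 9.11 at 36 h, 8.02, 8.07 and 8.05 at 60 h, and 8.20, 8.08 and 8.18 at 84 h. The changes at 36 h against QSCs, 0.42 in VCAM cells and -0.31 in YFP cells, were both under the fold threshold, and at 60 h Thy1 was called lower in both sorts (log2 changes -0.80 and -1.27 in VCAM and YFP cells, SE 0.077 each). The mean level of the 9 other T lymphocyte genes measured lay between 5.83 and 6.14 in every array.

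Fap encodes a membrane-bound serine protease of the dipeptidyl peptidase family. In young VCAM cells it measured 7.77, 7.84 and 7.73 in QSCs, 8.17, 8.29 and 8.31 at 36 h, 6.67, 6.66 and 6.86 at 60 h, and 7.96, 7.97 and 8.01 at 84 h. Among YFP cells the values were 6.76, 6.73 and 6.79 in QSCs, 7.25, 7.12 and 7.15 at 36 h, 6.09, 6.06 and 6.18 at 60 h, and 7.76, 7.56 and 7.72 at 84 h. Fap was lowest at 60 h in both sorts and rose from 60 to 84 h by 1.25 in VCAM cells (SE 0.060, adjusted p = 8.64e-15) and by 1.57 in YFP cells (SE 0.060, adjusted p = 4.53e-17). Its 84 h level was above that of QSCs by 0.92 in YFP cells (adjusted p = 2.3e-13), and the difference was 0.20 in VCAM cells (95% interval 0.08 to 0.32, adjusted p = 0.00501), which was not called. The 60 h values of both sorts, and the QSC values of YFP cells, were below the array medians of 7.03 to 7.16, and whether the probe set was above background there was not tested.

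Tcf4 encodes the E protein E2-2, a basic helix-loop-helix factor. The protein called TCF4 in work on muscle fibroblasts is the product of another gene, Tcf7l2, and both are given here. Tcf4 had the smallest range of the 9 genes, 0.89 between its lowest and highest group means. The young VCAM arrays read 11.49, 11.54 and 11.55 in QSCs, 11.03, 11.03 and 11.05 at 36 h, 10.61, 10.63 and 10.68 at 60 h, and 11.22, 11.22 and 11.24 at 84 h. YFP cells gave 11.38, 11.40 and 11.45 in QSCs, 11.17, 11.26 and 11.24 at 36 h, 10.69, 10.56 and 10.69 at 60 h, and 11.38, 11.39 and 11.40 at 84 h. Tcf4 was called lower at 60 h than in QSCs in both sorts (log2 changes -0.89 and -0.76 in VCAM and YFP cells, SE 0.042 each). Its rise of 0.59 from 60 to 84 h in VCAM cells sat at the 1.5-fold threshold, and it was 0.57 without replicate 1 and 0.58 without replicate 2 of the 60 h group or without replicate 3 of the 84 h group. Tcf7l2 was 9.06 to 9.23 in young VCAM QSCs, 8.68 to 8.74 at 36 h, 9.08 to 9.16 at 60 h and 9.03 to 9.14 at 84 h. In YFP cells it was 9.16 to 9.41 in QSCs, 8.90 to 8.96 at 36 h, 8.97 to 9.04 at 60 h and 8.99 to 9.08 at 84 h, and in old VCAM cells it was 8.78 to 8.89 at 60 h and 9.33 to 9.46 in QSCs. Its lowest stage was thus 36 h in both young sorts, whereas that of Tcf4 was 60 h.

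Counted together, 4 of the 9 genes were called higher and 1 lower at 36 h than in QSCs among VCAM cells, where 13.2% of all genes were called higher and 9.72% lower. The 4 were Pdgfra, Lum, Dcn and Smoc2, and the 1 was Dpt. In the same comparison all 20 macrophage markers were called higher (median log2 change 3.29), 8 of 10 tenocyte markers higher and 0 lower (median 1.98), and 11 of 14 satellite cell markers lower and 0 higher (median -2.04). Of the 14 endothelial markers, 1 was higher and 4 lower (median -0.14). In YFP cells 3 were called higher (Pdgfra, Lum and Dcn) and Dpt lower, against 10.1% higher and 6.14% lower of all genes. There too all 20 macrophage markers were higher (median 2.67), 7 of 10 tenocyte markers were higher (median 0.99), and 9 of 14 satellite cell markers were lower and 1 higher (median -0.86). Unlike in VCAM cells, 11 of 14 endothelial markers were higher and 1 lower (median 0.89). At 60 h the split was 2 higher and 5 lower in VCAM cells, with 16.6% and 12.6% of all genes, and 0 higher and 7 lower in YFP cells, with 17.2% and 12.8% of all genes. Between 36 and 60 h 8 of the 9 genes fell and 0 rose in VCAM cells, where 8.49% of all genes were called lower and 6.26% higher. In YFP cells 8 fell and 0 rose, where 8.58% of all genes were called lower and 8.73% higher. Markers of other cells fell over the same step, with 20 of 20 macrophage, 14 of 14 endothelial, 10 of 12 pericyte and 9 of 10 tenocyte markers lower in VCAM cells. In YFP cells 12 of 20 macrophage, 14 of 14 endothelial, 10 of 12 pericyte and 7 of 10 tenocyte markers were lower. Satellite cell markers fell as well, with 4 of 14 lower and 1 higher in VCAM cells (median -0.35). In YFP cells 9 of 14 were lower and 0 higher (median -0.80). The part of any of these cell types in the changes of the fibroblast genes was not tested. Of the 9 genes, only Tcf4 was not called between 36 and 60 h in each sort (log2 changes -0.40 in VCAM cells and -0.58 in YFP cells), and in YFP cells it passed at -0.60 when replicate 1 of the 36 h group, or replicate 1 or 3 of the 60 h group, was left out. The median log2 change of the 9 genes over this step was -1.90 in VCAM cells and -1.87 in YFP cells, against 0.00 and 0.04 for all genes. At 84 h against QSCs, 2 were higher and 3 lower in VCAM cells (16.4% and 11.2% of all genes), and 3 were higher and 4 lower in YFP cells (17% and 11.2% of all genes). From 60 to 84 h 3 genes rose in VCAM cells and 5 in YFP cells, with 3.22% and 4.66% of all genes, and none fell, with 0.732% and 2.19% of all genes. Comparisons with the same QSC or 60 h arrays share those arrays, so their counts are not independent of each other.

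**Figure D2:**
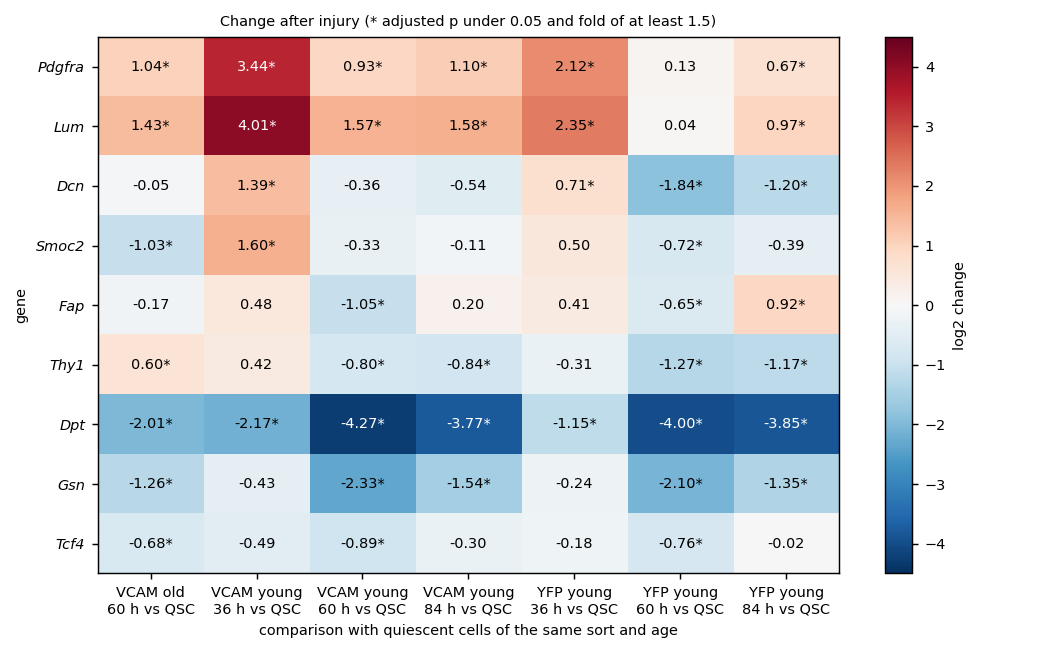
Log2 change of the 9 measured genes (rows) against QSCs of the same sort and age (columns), with an asterisk where the adjusted p was under 0.05 and the fold at least 1.5. Pdgfra and Lum were higher than in QSCs in every VCAM column, and Dpt was lower in every column, by up to 4.27.

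The comparison of VCAM cells with YFP cells sets a surface-marker sort of wildtype mice against a lineage label. The sort, the mouse strain and any effect of the tamoxifen that induces the label cannot be told apart in it. In QSCs, of the 9 genes only Fap was called, with 7.77, 7.84 and 7.73 in VCAM cells and 6.76, 6.73 and 6.79 in YFP cells (difference 1.02, SE 0.060, adjusted p = 6.79e-13), where 1.74% of all genes were called higher in VCAM cells and 1.82% lower. The other 8 differences in QSCs lay between 0.11 and 0.40. At 36 h 6 genes were called higher in VCAM cells, where 2.78% of all genes were, and 1 was called lower, where 2.49% were. The 6 were Lum (1.94, adjusted p = 1.08e-15), Pdgfra (1.72, adjusted p = 1.84e-16), Smoc2 (1.37, adjusted p = 8.1e-15), Fap (1.08, adjusted p = 1.04e-13), Dcn (0.96, adjusted p = 2.17e-15) and Thy1 (0.86, adjusted p = 1.2e-09), and Dpt was lower (-0.76, adjusted p = 3.16e-10). The arrays of the 2 sorts did not overlap for any of these 7 genes, nor for 48.8% of all genes.

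At 60 h 6 genes were again called higher in VCAM cells, where 0.557% of all genes were called higher, and 0 were called lower, where 0.757% were. Dcn measured 12.39, 12.39 and 12.41 in VCAM cells and 10.61, 10.57 and 10.73 in YFP cells (difference 1.76, SE 0.044, 3.39-fold, adjusted p = 2.45e-20), and Lum differed by 1.81 (SE 0.085, adjusted p = 1.7e-14) and Pdgfra by 1.20 (SE 0.069, adjusted p = 1.04e-12). Smoc2 (0.67), Fap (0.62) and Thy1 (0.60) passed the fold threshold narrowly. In YFP cells at 60 h Smoc2 read 7.28 to 7.34, not far above the array medians of 7.03 to 7.16, and Fap read 6.06 to 6.18, below them. Whether these probe sets were above background there was not tested. Without replicate 3 of the 60 h VCAM group Fap was 0.56 and Thy1 0.54, and 4 genes were called. Dpt, Gsn and Tcf4 differed by -0.01, -0.11 and -0.01, with 95% intervals inside -0.22 to 0.12. At 84 h Dcn (0.94), Lum (0.89) and Pdgfra (0.83) were called higher in VCAM cells, where 0.446% of all genes were called higher and 1.21% lower. Smoc2, at 0.56, was 0.59 and called without replicate 3 of the 84 h YFP group.

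The difference between the responses of the 2 sorts to injury was tested directly. At 36 h the change against QSCs was larger in VCAM than in YFP cells for Lum by 1.66 (adjusted p = 3.34e-11), for Pdgfra by 1.32 (adjusted p = 4.93e-11), for Smoc2 by 1.10 (adjusted p = 7.68e-10), for Thy1 by 0.73 (adjusted p = 7.3e-06) and for Dcn by 0.68 (adjusted p = 2.16e-09), and that of Dpt was more negative by 1.02, a difference of -1.02 (adjusted p = 1.18e-09). These were 5 genes with a higher and 1 with a lower response, against 4.47% and 4.61% of all genes. At 60 h Lum, Dcn and Pdgfra differed in the same direction (1.53, 1.48 and 0.80, against 2.21% of all genes called higher and 2.78% lower). At 84 h the differences called were 0.66 for Dcn, 0.61 for Lum and -0.72 for Fap (2.71% of all genes higher and 3.84% lower). The call for Lum at 84 h was lost at 0.50 without replicate 1 of the young VCAM QSCs, and at 0.55 without replicate 2 of the 84 h VCAM cells, replicate 3 of the YFP QSCs or replicate 3 of the 84 h YFP cells.

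**Figure D3:**
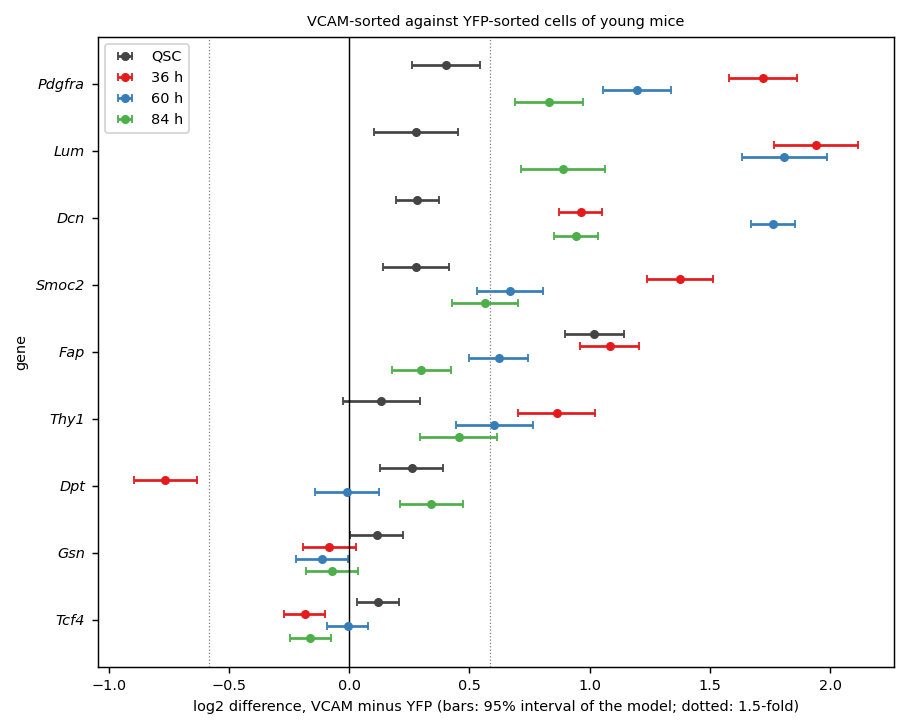
Log2 difference of VCAM minus YFP cells of young mice for the 9 measured genes in QSCs and at 36, 60 and 84 h after injury, with the 95% interval of the model as bars and 1.5-fold as dotted lines. Pdgfra, Lum, Dcn and Smoc2 lay to the right after injury, by up to 1.94, while Gsn and Tcf4 stayed within 0.19 of 0 at all 4 stages.

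Genes of other cell types also differed between the sorts. At 36 h 10 of 14 satellite cell markers were called lower and 0 higher in VCAM cells (median -0.90), with mean levels of 10.03 to 10.09 in VCAM arrays and 10.85 to 10.86 in YFP arrays. In QSCs 5 of 12 pericyte and smooth muscle markers and 5 of 10 tenocyte markers were called higher in VCAM cells, and none was lower. The mean level of 10 tenocyte markers was 10.58 to 10.60 in VCAM arrays and 9.08 to 9.10 in YFP arrays at 36 h, and 8.85 to 8.93 against 7.56 to 7.60 at 60 h. Of these 10 genes 9 were called higher in VCAM cells at 36 h and 7 at 60 h, led at 60 h by Kera (2.39), Thbs4 (2.35), Tnmd (2.14) and Fmod (2.10). Tnmd, which encodes the tendon membrane protein tenomodulin, is a defining gene of the list. In contrast, all 14 endothelial markers were called lower in VCAM cells at 36 h, with mean levels of 8.52 to 8.59 in VCAM arrays and 9.71 to 9.74 in YFP arrays. Of 20 monocyte and macrophage markers, 8 were higher in VCAM cells at 36 h, and 9 were lower at 60 h. At 36 h their mean level was 9.61 to 9.74 in VCAM arrays and 9.17 to 9.20 in YFP arrays, and at 60 h it was 7.63 to 7.76 in VCAM arrays and 8.23 to 8.33 in YFP arrays. Their part in the differences of the fibroblast genes was not tested.

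The comparison of old with young mice was made in VCAM cells. In QSCs Lum measured 8.98 to 9.15 in the 3 arrays of old mice and 7.39 to 7.74 in the 3 arrays of young mice (difference 1.45, SE 0.085, 2.72-fold, adjusted p = 3.46e-13). Smoc2 measured 9.79, 9.63 and 9.88 in old mice and 8.30, 8.31 and 8.32 in young mice (difference 1.45, SE 0.066, 2.74-fold, adjusted p = 2.94e-15). Pdgfra measured 9.29, 9.22 and 9.22 in old mice and 8.07, 8.30 and 8.50 in young mice (difference 0.95, SE 0.069, adjusted p = 1.62e-11). The 2 ages did not overlap for any of these 3 genes, nor for 44.5% of all genes. Dcn was also higher in old QSCs, with 13.56, 13.53 and 13.44 against 12.77, 12.74 and 12.76 in young QSCs (difference 0.75, SE 0.044, adjusted p = 2.62e-13). In the other direction, Thy1 measured 8.21, 8.58 and 8.41 in old QSCs and 9.42, 9.47 and 9.47 in young QSCs (difference -1.05, SE 0.077, adjusted p = 2.26e-11), and Dpt was lower in old QSCs by 0.92 on the log2 scale, a difference of -0.92 (SE 0.064, adjusted p = 7.38e-12). Hence 4 genes were called higher and 2 lower in old QSCs, where 3.04% of all genes were called higher and 4.7% lower. Gsn and Tcf4 differed by -0.01 and -0.17.

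At 60 h after injury 6 genes were called higher in old than in young VCAM cells and 0 lower, against 4.75% and 0.657% of all genes. Dpt measured 9.27, 9.23 and 9.19 in old cells and 7.69, 8.03 and 7.96 in young cells (difference 1.34, SE 0.064, adjusted p = 3.19e-15). Lum measured 10.43, 10.51 and 10.50 in old cells and 9.07, 9.17 and 9.25 in young cells (difference 1.31, SE 0.085, adjusted p = 1.89e-12). Gsn measured 10.66, 10.66 and 10.67 in old cells and 9.49, 9.56 and 9.76 in young cells (difference 1.06, SE 0.053, adjusted p = 8.88e-15). No array of young cells reached the level of an old array for 8 of the 9 genes, these 3 included, and 40.1% of all genes did not overlap between the ages. Pdgfra (1.07), Dcn (1.06) and Smoc2 (0.75) were the other genes called. The median difference of the 9 genes was 1.06, and that of all genes was -0.05.

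Within old VCAM cells, 60 h against QSCs, 3 of the 9 genes were called higher (17.8% of all genes) and 4 lower (11.7%). Lum rose by 1.43 (adjusted p = 3.11e-14), Pdgfra by 1.04 (adjusted p = 3.12e-13) and Thy1 by 0.60 (adjusted p = 1.42e-07), with Thy1 at 9.01, 9.01 and 8.98 at 60 h and at 8.21, 8.58 and 8.41 in QSCs. Without replicate 1 of the old QSCs the change of Thy1 was 0.50 and was not called. Dpt (-2.01), Gsn (-1.26), Smoc2 (-1.03) and Tcf4 (-0.68) fell. The response to injury at 60 h differed between old and young cells for 5 of the 9 genes, more positive in old cells for Dpt (2.26, adjusted p = 4.96e-16), Thy1 (1.40, adjusted p = 1.31e-10), Gsn (1.07, adjusted p = 1.7e-11) and Fap (0.87, adjusted p = 6.47e-09) and more negative for Smoc2 (-0.70, adjusted p = 1.47e-06). Of all genes, 6.81% were called more positive and 2.16% more negative. For Lum (-0.14, 95% interval -0.38 to 0.11) and Pdgfra (0.12, 95% interval -0.08 to 0.32) no difference in response was called, and both were higher in old cells at each of the 2 stages.

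**Figure D4:**
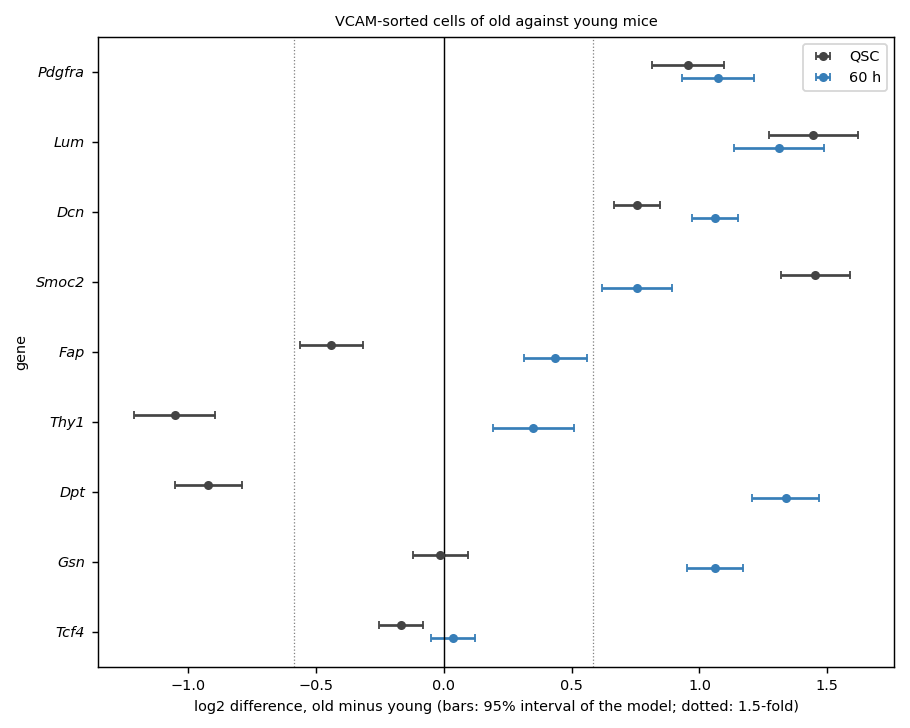
Log2 difference of old minus young VCAM cells for the 9 measured genes in QSCs and at 60 h after injury, with the 95% interval of the model as bars and 1.5-fold as dotted lines. Pdgfra, Lum, Dcn and Smoc2 lay to the right at both stages, Dpt was at -0.92 in QSCs and 1.34 at 60 h, and Thy1 was at -1.05 in QSCs and 0.35 at 60 h.

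Other markers moved with age as well. At 60 h all 20 monocyte and macrophage markers were called higher in old cells, with a mean level of 9.44 to 9.54 in old arrays and 7.63 to 7.76 in young arrays. At 60 h 10 of 14 endothelial markers were higher in old cells (7.84 to 7.87 against 6.99 to 7.03 in young arrays), as were 6 of 12 pericyte and smooth muscle markers. Of the 14 satellite cell markers, 3 were higher and 0 lower in old cells at 60 h (median 0.14). The injury response at 60 h was more positive in old cells for 8 of these 14 and more negative for 0 (median 0.75). In QSCs 4 of 14 satellite cell markers were called lower and 0 higher in old mice (median -0.50), with mean levels of 11.43 to 11.47 in old arrays and 11.90 to 11.95 in young arrays, and 5 of 12 pericyte markers were lower and 0 higher (median -0.42). In QSCs 1 of the 20 macrophage markers was called higher and none lower in old mice, with mean levels of 6.53 to 6.57 in old arrays and 6.28 to 6.37 in young arrays, and the 14 endothelial markers had mean levels of 8.97 to 8.99 in old arrays and 8.85 to 8.88 in young arrays. Of the 10 tenocyte markers 6 were higher in old QSCs, with mean levels of 9.56 to 9.59 in old and 8.77 to 8.82 in young arrays, led by Thbs4 (1.66) and Fmod (1.46), and 6 were higher in old cells at 60 h. Their part in the age differences of the fibroblast genes was not tested.

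The other genes of the fibroblast list, 35 of 36 of them measured, covered collagens, elastic fibre proteins, transcription factors and surface proteins. At 36 h against QSCs 17 were called higher and 4 lower in VCAM cells, and 17 higher and 3 lower in YFP cells, beside the shares of all genes given above for these comparisons (13.2% higher and 9.72% lower in VCAM cells, 10.1% and 6.14% in YFP cells). In VCAM cells the largest changes were those of Il33, an alarmin cytokine (4.39), Lox, the collagen cross-linking lysyl oxidase (3.34), S100a4 (2.79) and Hsd11b1, which regenerates active glucocorticoid (-2.75). Between 36 and 60 h 24 of the 35 fell in VCAM cells and none rose, with Apod (-3.00), Cxcl14 (-2.91) and Igfbp6 (-2.82) first. At 60 h against QSCs 7 were higher and 14 lower in VCAM cells. Of all genes in VCAM cells, 8.49% were called lower and 6.26% higher between 36 and 60 h. At 60 h against QSCs 16.6% of all genes were called higher and 12.6% lower. The list thus held genes that ran with Pdgfra and genes that ran with Dpt, such as Hsd11b1 (-4.37 at 60 h in VCAM cells) and Col15a1 (-3.26).

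In VCAM against YFP cells, 10 of these 35 genes were called higher in QSCs, 14 at 36 h, 7 at 60 h and 5 at 84 h, and 1, 3, 0 and 2 were called lower. Of all genes, 1.74%, 2.78%, 0.557% and 0.446% were called higher at these stages, and 1.82%, 2.49%, 0.757% and 1.21% lower. In QSCs the largest differences were those of Pdgfrb (1.98), Postn (1.78), Col1a2 (1.70) and Col1a1 (1.49). These genes, for the second PDGF receptor, periostin and the chains of type I collagen, were higher in VCAM QSCs, a stage at which Pdgfra differed by only 0.40. Pdgfrb belongs to the pericyte list as well, and Des is shared by the pericyte and satellite cell lists. In old against young QSCs 9 were higher and 5 lower, with Lox (1.84), Il33 (1.83) and Apod (1.76) up and Col3a1 (-1.35) down, and at 60 h 15 were higher and 0 lower in old cells, with Apod (1.76) and Cxcl14 (1.51) leading. Of all genes, 3.04% were called higher and 4.7% lower in old QSCs, and 4.75% and 0.657% in old cells at 60 h.

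**Figure D5:**
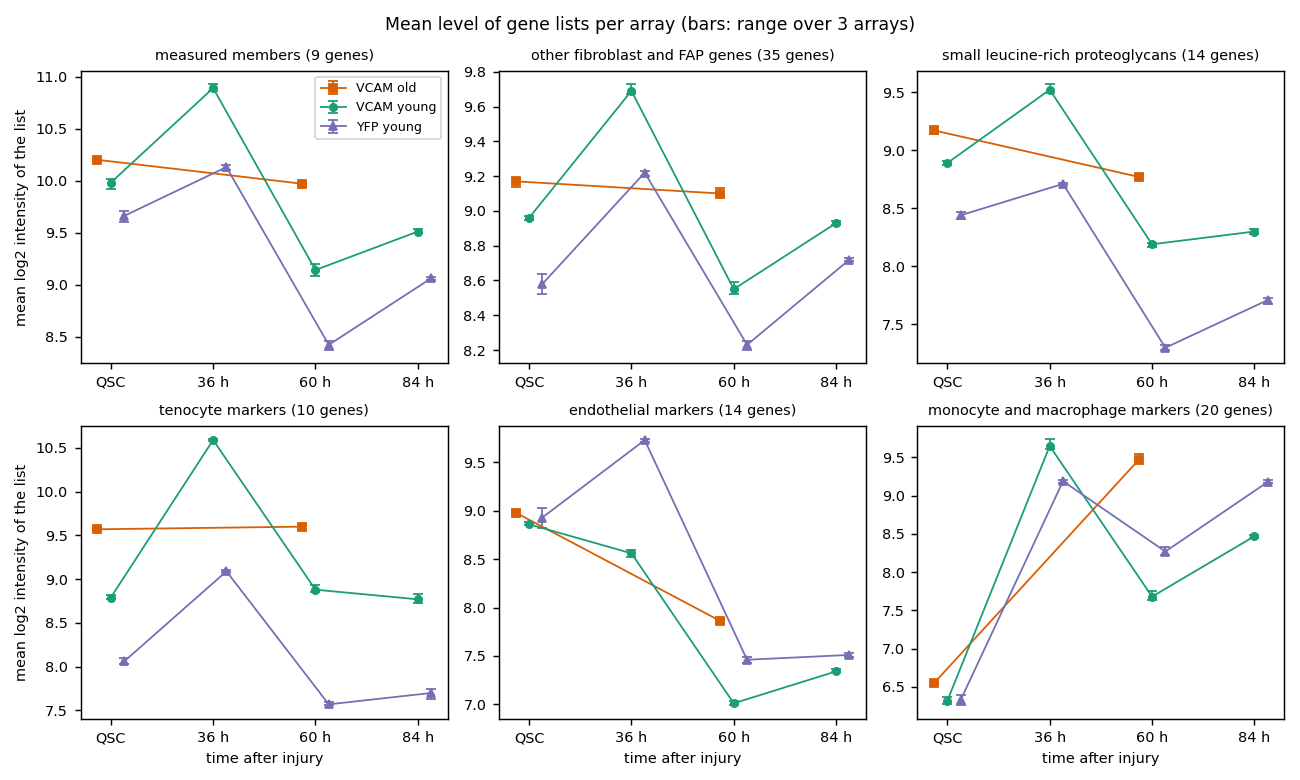
Mean log2 intensity of 6 gene lists by stage (QSC, then hours after injury) for old VCAM, young VCAM and young YFP cells, with bars for the range over the 3 arrays. In young cells the lists of other fibroblast, proteoglycan and tenocyte genes peaked at 36 h and had higher means in VCAM than in YFP cells at every stage, and macrophage markers were highest at 36 h in young VCAM cells (9.61 to 9.74).

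Families of the measured genes were compared in the same way. Beside the family counts below stand the shares of all genes called. Against QSCs these were 13.2% higher and 9.72% lower at 36 h in VCAM cells, 16.6% and 12.6% at 60 h in VCAM cells, and 10.1% and 6.14% at 36 h in YFP cells. In VCAM against YFP cells they were 2.78% and 2.49% at 36 h, 0.557% and 0.757% at 60 h, and 0.446% and 1.21% at 84 h. Among 14 other small leucine-rich proteoglycans, 6 were called higher and 0 lower at 36 h in VCAM cells, led by Kera (keratocan, 2.39), Fmod (fibromodulin, 2.05), Aspn (asporin, 1.43) and Bgn (biglycan, 1.14). At 60 h 0 were higher and 4 lower, with Prelp (-2.72) and Ecm2 (-2.30) first, at a time when Lum was above its QSC level. In VCAM against YFP cells 7 of the 14 were higher at 36 h, 8 at 60 h and 7 at 84 h, and none was lower. Kera and Fmod belong to the tenocyte list as well.

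Of the other 6 PDGF ligands and receptors, Pdgfrb changed by -1.91 at 60 h in VCAM cells (adjusted p = 1.3e-20), when Pdgfra was above its QSC level, and Pdgfrl by -2.96 (adjusted p = 7.3e-23). At 36 h 2 of the 6 were called higher and 1 lower in VCAM cells (Pdgfd 0.97, Pdgfc 0.75 and Pdgfrl -1.22), and 4 higher and 1 lower in YFP cells, among them Pdgfa (0.97), Pdgfrb (0.91), Pdgfb (0.90) and Pdgfd (0.84). Pdgfrb was higher in VCAM than in YFP cells at every stage, by 1.98 in QSCs, 1.05 at 36 h, 1.18 at 60 h and 0.88 at 84 h. In old against young cells it differed by -0.88 in QSCs and by 0.83 at 60 h.

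Relatives of Smoc2, Gsn, Fap and Tcf4 did not all move with them. Of 7 other SPARC family genes 5 fell at 60 h in VCAM cells and none rose, with Sparcl1 at -2.88 and Spock3 at -2.28, and at 36 h, when Smoc2 rose, 1 rose (Spock2, 0.64) and 2 fell. Of 7 other gelsolin family genes 3 rose at 36 h and at 60 h and none fell, while Gsn fell at 60 h. They were Capg (2.21 at 36 h), Svil (1.58) and Scin (0.60). Dpp4, the nearest relative of Fap, rose by 1.57 at 36 h in VCAM cells and was 1.18 higher in VCAM than in YFP cells at that time. Of the 9 other E proteins, Id proteins and TCF/LEF factors, 4 fell at 36 h in VCAM cells, with Id4 at -1.12 and Id3 at -1.08, and Tcf3, the gene of another E protein, rose by 0.72 at 60 h, when Tcf4 fell. In the Ly6 family of Ly6a, 21 of 24 other genes were measured, and 2 were called higher and 2 lower at 36 h in VCAM cells (Plaur 1.16, Ly6e 0.59, Cd59a -0.89 and Cd59b -0.84), near the shares of all genes in that comparison (13.2% higher and 9.72% lower).

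Over the 10 group means, which share the arrays and their normalization, Pdgfra and Lum had a Pearson correlation of 0.99, and Lum was the gene nearest to Pdgfra among 6062 genes whose group means spanned at least 1. Next to Lum, the genes most like Pdgfra were Hhipl1 (0.970) and Aebp1 (0.969). Dcn was nearest to Fmod and Cpxm2 (0.967 each) and Smoc2 to Calhm5 (0.968), and Dcn and Smoc2 correlated with each other at 0.91. Dpt was nearest to Chodl (0.995), a satellite cell marker, to Abca8a (0.994) and to Tagln (0.991), and Gsn to Creb3l2 (0.993), with 0.95 between Dpt and Gsn. Between Dpt and Pdgfra the correlation was -0.06. Thy1 was nearest to Tenm3 (0.936) and Fap to Col6a1 (0.904), below the values of the other genes.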

How the data were processed

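The authors hybridised RNA of 30 sorted samples to Affymetrix Mouse Gene 1.0 ST arrays and deposited log2 intensities made with Affymetrix Expression Console and RMA (background correction, quantile normalization, probe summary), for which the sources used here give no version. No depth exists for arrays, and the 3 arrays per group limit the precision. Of 35556 probe sets, 21789 carried 1 gene symbol in the platform annotation, 1621 several (left out) and 12146 none. For each gene the probe set with the highest mean over the 30 arrays was kept, which left 19938 genes, and no filter on low values was applied. In R 4.3.3, a mean for each of the 10 groups was estimated by lmFit and eBayes of limma 3.58.1 (20 residual degrees of freedom, two-sided), and p values were adjusted over all genes within each of 21 comparisons. A gene was called at an adjusted p under 0.05 and a fold of at least 1.5. The fit was tested on simulated data. Members and lists were chosen with earlier results of these data known. Named genes are the 9 measured members, the 3 genes most correlated with each member (of those spanning at least 1), the genes of each list that changed most in a comparison (at most 4), Tcf7l2, and genes of the sort. Promoter windows were matched by symbol for 3 members, of which those of Pdgfra and Dpt are shown. The alternatives tried were median centring, a second quantile normalization, averaged probe sets, dropping dim genes, a 2-fold threshold, only the groups compared, a replicate block and leaving out each array.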

Additional observations from a re-analysis of the deposited data

Results flagged for a closer look

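The following results stand out because the injury response itself differed between 2 groups in the model over all genes (limma). Between old and young VCAM cells at 60 h the responses differed by 2.26 for Dpt, 1.40 for Thy1, 1.07 for Gsn, 0.87 for Fap and -0.70 for Smoc2 on the log2 scale. Between VCAM and YFP cells at 36 h they differed by 1.66 for Lum, 1.32 for Pdgfra, 1.10 for Smoc2, 0.73 for Thy1, 0.68 for Dcn and -1.02 for Dpt. At 60 h the differences were 1.53 for Lum, 1.48 for Dcn and 0.80 for Pdgfra, and at 84 h 0.66 for Dcn, 0.61 for Lum and -0.72 for Fap.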

How the results depend on the processing

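The number of the 9 genes called depended most on the fold threshold. At 2-fold in place of 1.5-fold, VCAM cells had 4 genes called at 60 h and 1 from 60 to 84 h, and YFP cells had 4 at 60 h, 4 at 84 h and 1 from 60 to 84 h. VCAM against YFP cells then had 4 at 36 h, 3 at 60 h and 0 at 84 h, old against young QSCs 3, the difference between the responses of old and young cells 3, and that between VCAM and YFP cells at 84 h 0. The shares of all genes called at 2-fold are not given here, so these counts cannot be set against them. Leaving out 1 array gave 4 to 6 genes for VCAM against YFP cells at 60 h and 3 to 4 at 84 h. Some differences near 0, none of them called, changed sign. With medians of arrays centred these were Lum from 60 to 84 h in VCAM cells (-0.07), Dpt and Tcf4 in VCAM against YFP cells at 60 h (0.02 each), Gsn in old against young QSCs (0.0099) and Tcf4 in old against young cells at 60 h (-0.04). With a further quantile normalization they were Pdgfra in YFP cells at 60 h (-0.00055), Dpt in VCAM against YFP cells at 60 h (0.03) and Dcn in old cells at 60 h (0.02). With 1 array left out the ranges that crossed 0 were those of Lum (-0.05 to 0.07) and Thy1 (-0.09 to 0.02) from 60 to 84 h in VCAM cells, Lum at 60 h (-0.02 to 0.12) and Tcf4 at 84 h (-0.03 to 0.001) in YFP cells, Dpt (-0.08 to 0.09) and Tcf4 (-0.05 to 0.02) in VCAM against YFP cells at 60 h, and Gsn in old against young QSCs (-0.03 to 0.0068). The cause was not tested. The second quantile normalization left uncalled Pdgfra in YFP cells at 84 h (0.47), Thy1 in old cells at 60 h (0.33) and Thy1 in VCAM against YFP cells at 60 h (0.58), and it called Tcf4 in YFP cells between 36 and 60 h (-0.67). Centring left uncalled Tcf4 in VCAM cells (0.50) and Dcn in YFP cells (0.57) from 60 to 84 h. With group means removed, arrays of different groups had a mean correlation of 0.035 when they shared a replicate number and of -0.0175 otherwise. Of 135 same-numbered pairs, 27 correlated above 0.1. Whether the numbers pair the arrays was not tested further. A fit with the replicate block called the same number in each comparison, for instance 7 for VCAM against YFP cells at 36 h. It left the labels of all 189 changes of single genes the same. Each group holds every replicate number once, so the block cannot move a log2 change, and this fit says little about pairing.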
